A study of Mus musculus with 3 samples.

Results

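The genes followed here were the endothelial receptors *Kdr*, *Flt1*, *Tek* and *Tie1*, the endothelial surface and secreted markers *Pecam1*, *Emcn*, *Cd34*, *Esam* and *Egfl7*, and the ligand *Vegfa*. They were chosen by symbol, and all 10 were found among the 23421 genes of the table. The table holds 1 RNA-seq library each of wild-type, tw18/+ and tw18/tw18 embryos at embryonic day (E)6.5. All came from crosses between tw18/+ mice and are labelled 129/SvEv. The tw18 haplotype carries a large deletion on Chr 17 that removes *Ppp2r1a*, which encodes a scaffolding subunit of phosphatase PP2A. The deletion is present on 1 chromosome in tw18/+ and on both in tw18/tw18, so the homozygotes lack the other genes of the interval as well. The samples are labelled epiblast. In the study's account of the dissection, the part of the embryo that was sequenced also kept its visceral endoderm. For E6.5 embryos stained for *Nodal* and *Wnt3* RNA, the study describes the mutants as slightly younger in form. It does not say this of the sequenced embryos. How many embryos entered a library is not given in the sources used here.

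Blood vessels arise from mesoderm. Cells that leave the primitive streak turn on *Kdr*, the main signalling receptor for VEGF-A, and form the first endothelial and blood cells of the yolk sac and allantois. *Flt1* encodes a second VEGF-A receptor, which binds the ligand tightly and limits what reaches *Kdr*. *Tek* (Tie2) is the receptor for angiopoietins, and *Tie1* is its partner without a firm ligand of its own. *Pecam1*, *Emcn*, *Cd34* and *Esam* encode adhesion and mucin-like proteins of the endothelial surface, and *Egfl7* a secreted matrix protein. Several are not exclusive to endothelium: *Pecam1* is also made by pluripotent cells and leukocytes, *Cd34* by blood progenitors and stroma, *Flt1* by trophoblast, and *Vegfa* by many cell types, visceral endoderm among them. At implantation stages the surrounding decidua has its own dense maternal vessels.

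Upstream sequence of 5 of the genes is shown, since these genes had their highest level in the same library and since their promoters differ in kind. Each run is the 250 bases before a RefSeq start site (GRCm38.p6), read 5′ to 3′ on the gene's strand. Capitals mark every GGAA, the core letters bound by ETS-family factors, or its reverse complement TTCC.
*Kdr*, chr5:75978456-75978705, minus strand: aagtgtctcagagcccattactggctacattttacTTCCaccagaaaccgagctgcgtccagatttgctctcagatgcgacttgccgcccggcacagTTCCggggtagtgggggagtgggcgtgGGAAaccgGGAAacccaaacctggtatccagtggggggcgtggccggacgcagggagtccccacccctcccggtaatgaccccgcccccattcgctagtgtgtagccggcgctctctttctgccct
*Flt1*, chr5:147726012-147726261, minus strand: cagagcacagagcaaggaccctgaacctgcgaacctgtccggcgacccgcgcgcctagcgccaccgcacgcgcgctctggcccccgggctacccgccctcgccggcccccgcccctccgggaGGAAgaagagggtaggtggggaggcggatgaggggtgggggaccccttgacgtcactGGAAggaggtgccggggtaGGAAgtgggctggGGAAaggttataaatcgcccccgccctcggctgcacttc
*Tek*, chr4:94739039-94739288, plus strand: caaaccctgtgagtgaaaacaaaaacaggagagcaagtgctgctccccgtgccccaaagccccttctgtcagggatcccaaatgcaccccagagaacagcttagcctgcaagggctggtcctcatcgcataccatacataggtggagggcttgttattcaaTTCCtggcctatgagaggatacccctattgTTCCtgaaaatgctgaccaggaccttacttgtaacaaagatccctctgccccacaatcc
*Emcn*, chr3:137340828-137341077, plus strand: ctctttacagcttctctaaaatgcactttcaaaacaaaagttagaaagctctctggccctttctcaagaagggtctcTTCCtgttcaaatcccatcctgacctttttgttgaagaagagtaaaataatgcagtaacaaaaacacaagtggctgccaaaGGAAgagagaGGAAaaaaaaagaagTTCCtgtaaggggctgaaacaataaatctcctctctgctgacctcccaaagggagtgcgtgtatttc
*Vegfa*, chr17:46032378-46032627, minus strand: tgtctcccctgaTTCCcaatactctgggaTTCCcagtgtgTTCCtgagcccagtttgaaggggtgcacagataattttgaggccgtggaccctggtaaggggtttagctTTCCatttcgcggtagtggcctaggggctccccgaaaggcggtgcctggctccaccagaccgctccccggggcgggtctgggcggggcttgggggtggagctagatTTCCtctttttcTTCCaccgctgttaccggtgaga

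The RefSeq table held such windows for 8 of the 10 genes, 11 windows in all; *Pecam1* and *Esam* had no entry. GGAA or its complement was present in 11 of 11 windows and in 93.4% of the 32851 windows of all genes, where the median was 3 matches. The *Tie1* window held 7 matches, but 212 of its 250 bases lie in annotated exons of *Tie1*. The printed *Vegfa* window held 6, and its other window, with 218 bases in exons, held 2. The *Cd34* window held 5, those of *Kdr*, *Flt1* and *Emcn* 4 each and that of *Tek* 2. The windows of *Egfl7* held 5, 3 and 1. The longer word AGGAAG, which contains GGAA, matched on either strand in at least 1 window of 5 of the 8 genes and in 29.5% of all windows. The word CCGGAA, which also contains GGAA, matched in *Kdr* alone among the 8 genes and in 12.0% of all windows. *Flt1* was the only 1 of the 8 genes with the TATA-box letters TATAAA, 31 bases before its start site, against 12.4% of all windows. Its sequence was also the richest in G and C (70.4%), while that of *Emcn* was the poorest (40.8%). GGGCGG, the letters of an SP1 box, matched in windows of 4 of the 8 genes and in 32.7% of all windows. The hypoxia response core ACGTG matched in 1 of the 8 genes, at an internal start site of *Vegfa*, and in 16.6% of all windows. GATAA, the core of GATA sites, matched in 2 of the 8 genes, *Vegfa* and *Egfl7*, and in 22.6% of all windows. These are matches of letters on both strands, not sites shown to be bound.

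Values are FPKM, fragments scaled to transcript length and to library depth, as the authors calculated them, so levels of different genes are per length. With 1 library per genotype no difference has a replicate check, and neither a p-value nor an SD is given. The spacing of low values gave a depth of 1.40 times that of wild type in both tw18/+ and tw18/tw18, and 80.6% to 85.7% of the values it was read from were whole fragment numbers to within 0.2. The spacing was chosen to bring these same values close to whole numbers, so this share is not an independent check of it. From this spacing the number of fragments behind each FPKM was estimated, and the 95% intervals of ratios are exact binomial intervals of those numbers. They cover counting error only. A gene counted as higher or lower when its log2 ratio was at least 1 in size and the higher of the 2 values was at least 1 FPKM. *Ppp2r1a* was at 146 FPKM in wild type, 81.7 in tw18/+ and 12.8 in tw18/tw18. This is the order of the labelled genotypes, but the tw18/tw18 value was above 0 although the deletion removes the gene from both chromosomes. The source of these fragments was not tested. The 10 listed epiblast genes all reached an FPKM of 1 in each library, with *Pou5f1* at 628, 721 and 274 in the same order.

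In tw18/tw18, 7 of the 10 genes were higher than in wild type and 0 were lower. Over all 12917 genes tested, 15.1% were higher and 6.94% lower. The 7 genes were *Tek*, *Tie1*, *Emcn*, *Cd34*, *Esam*, *Kdr* and *Vegfa*, in falling order of their log2 ratio. The other 3, *Pecam1*, *Flt1* and *Egfl7*, had ratios above 0 but under the threshold. All 10 genes had their highest level in tw18/tw18, while 41.0% of the 13118 genes that reached an FPKM of 1 in any library did so. *Tie1* reached 1 FPKM only in tw18/tw18, and a gene that passes only there is highest there by that rule. The median difference of log2(FPKM + 1), on which changes of low genes appear smaller, was 1.27 over the 10 genes and -0.0074 over all genes tested. In bulk RNA of this kind, more cells of a type and more RNA per cell cannot be told apart. Rescaling the libraries to equal FPKM sums raised the log2 ratios of tw18/tw18 to wild type by 0.21. It moved the split of all called genes from 68.5% to 79.8% higher, and that of the 10 genes from 7 to 8 higher with 0 lower.

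**Figure D1:**
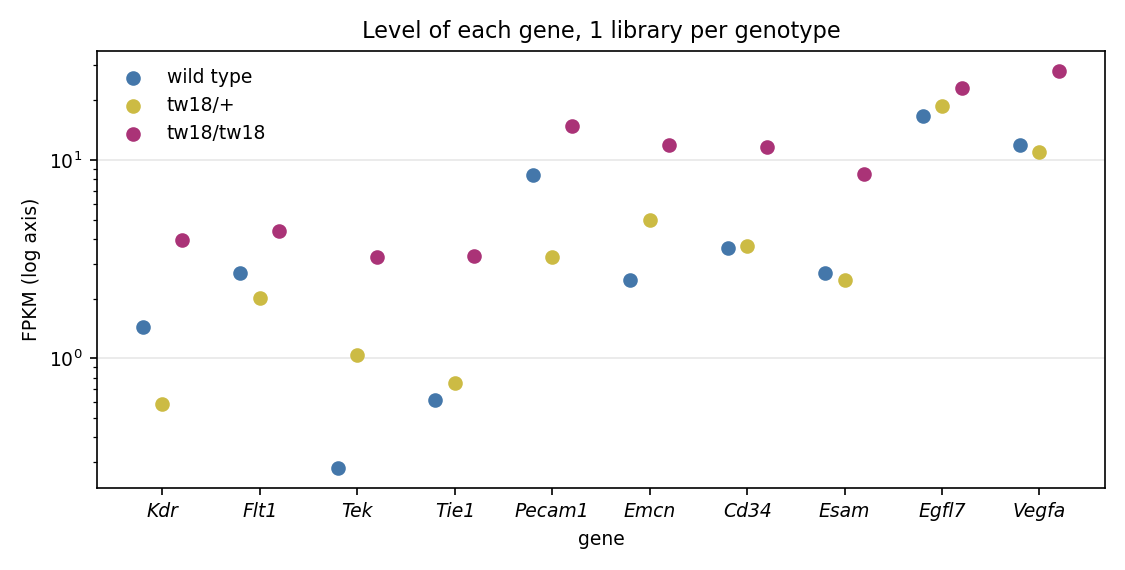
FPKM (log axis) of the 10 genes in the 3 libraries, 1 point per library and gene. The tw18/tw18 point is the highest for every gene. The wild-type and tw18/+ points change places from gene to gene, and *Tek* is the lowest gene in wild type at 0.280.

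Among the VEGF receptors, *Kdr* lies on Chr 5 from 75932827 to 75978458 (GRCm38, GENCODE M21), on the minus strand. Its FPKM was 1.43 in wild type, 0.590 in tw18/+ and 3.93 in tw18/tw18, from about 125, 72 and 479 fragments. The 3 libraries were thus set apart, with tw18/+ the lowest. The log2 ratio of tw18/tw18 was 1.45 against wild type (95% counting interval 1.17 to 1.75) and 2.74 against tw18/+ (2.37 to 3.11). With a pseudocount of 1 the first of these was 1.02, close to the threshold.

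*Flt1* also lies on Chr 5, from 147561604 to 147726011. It stood at 2.69 FPKM in wild type, 2.02 in tw18/+ and 4.40 in tw18/tw18, from about 273, 288 and 626 fragments. The order of the libraries was that of *Kdr*, over a smaller range. In tw18/tw18 its log2 ratio was 0.71 against wild type (0.51 to 0.92), under the threshold, and 1.12 against tw18/+ (0.92 to 1.33). The excess of *Flt1* over *Kdr* therefore differed between libraries. Their FPKM ratio was 1.87 in wild type (1.51 to 2.33), 3.43 in tw18/+ (2.64 to 4.50) and 1.12 in tw18/tw18 (0.99 to 1.26), a measure that does not depend on how a library is scaled. *Flt1* was above *Kdr* in wild type and tw18/+, and in tw18/tw18 the interval included equal levels. The deposited value does not separate the soluble and the membrane-bound forms of *Flt1*, which come from 1 gene.

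The angiopoietin receptors were the least abundant of the 10 genes in wild type. *Tek* occupies Chr 4 from 94739289 to 94874976 and reached 0.280 FPKM in wild type, 1.04 in tw18/+ and 3.25 in tw18/tw18, from about 19, 98 and 309 fragments. Its level went up in the order of the number of tw18 chromosomes, and the intervals of all 3 log2 ratios between libraries lay away from 0. The log2 ratio of tw18/tw18 was 3.54 against wild type (2.87 to 4.29), the largest of the 10 genes and rank 113 of the 12625 genes with a ratio. It rests on a low wild-type value: with a pseudocount of 1 the ratio was 1.73, and against tw18/+ it was 1.65 (1.32 to 2.0).

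*Tie1*, at 118471191 to 118490061 on the same chromosome, was measured at 0.616 FPKM in wild type, 0.749 in tw18/+ and 3.27 in tw18/tw18, from about 37, 62 and 272 fragments. Wild type and tw18/+ could not be told apart by counting error, with a log2 ratio of 0.28 (-0.35 to 0.89). The ratio of tw18/tw18 was 2.41 against wild type (1.89 to 2.93) and 2.13 against tw18/+ (1.73 to 2.56). *Tie1* and its partner were thus not raised in step. The FPKM ratio of *Tie1* to *Tek* was 2.2 in wild type (1.25 to 4.10), 0.722 in tw18/+ (0.517 to 1.0) and 1.01 in tw18/tw18 (0.852 to 1.19). Summed over the 4 receptors the FPKM was 5.02 in wild type, 4.40 in tw18/+ and 14.9 in tw18/tw18.

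**Figure D2:**
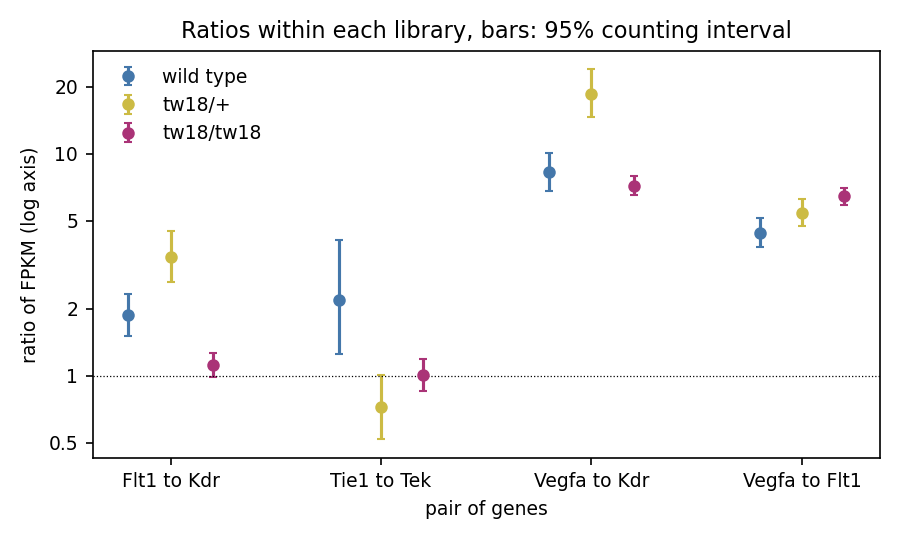
Ratios of FPKM between pairs of the genes within each library (log axis), with 95% counting intervals. The *Flt1* to *Kdr* and *Vegfa* to *Kdr* ratios peak in tw18/+, at 3.43 and 18.6, and the *Tie1* to *Tek* ratio is highest in wild type, at 2.2.

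*Vegfa*, the ligand of both VEGF receptors, lies on Chr 17 from 46016993 to 46032369, distal to the deletion. Its FPKM was 11.8 in wild type, 11.0 in tw18/+ and 28.2 in tw18/tw18, from about 590, 765 and 1967 fragments. Wild type and tw18/+ differed by less than counting error, with a log2 ratio of -0.11 (-0.27 to 0.048). The ratio of tw18/tw18 was 1.25 against wild type (1.12 to 1.39) and 1.36 against tw18/+ (1.24 to 1.48). The ligand was several-fold above its receptors in each library. *Vegfa* to *Kdr* was 8.26 in wild type (6.80 to 10.1), 18.6 in tw18/+ (14.6 to 24.0) and 7.18 in tw18/tw18 (6.5 to 7.95). *Vegfa* to *Flt1* was 4.41 (3.82 to 5.12), 5.43 (4.73 to 6.24) and 6.42 (5.87 to 7.04) in the same order.

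*Vegfa* is a known target of hypoxia-inducible factors, so 14 hypoxia genes were read beside it. In tw18/tw18 1 was higher than in wild type, *Ankrd37* (1.36 in wild type, 2.07 in tw18/+ and 5.77 in tw18/tw18), and 1 was lower, *Egln3* (10.9, 6.72 and 5.26), beside 15.1% and 6.94% of all genes. Against tw18/+ 2 were higher, *Ankrd37* and the hypoxia factor gene *Epas1* (59.6, 33.6 and 95.1), and 2 were lower, *Ldha* and *Pdk1*. The shares of all genes tested in that comparison were 14.9% higher and 5.65% lower. Relative to wild type, the 14 hypoxia genes in tw18/tw18 shifted by a median of -0.21 on the log2(FPKM + 1) scale. Relative to tw18/+, their median shift was -0.26. The most abundant of the 14, the glycolysis genes *Ldha* and *Pgk1*, had log2 ratios of -0.95 and -0.88 in tw18/tw18 against wild type.

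Of the surface markers, *Emcn*, which encodes the sialomucin endomucin of veins and capillaries, lies on Chr 3 from 137341067 to 137432185. Its FPKM was 2.48 in wild type, 4.97 in tw18/+ and 11.9 in tw18/tw18, from about 91, 256 and 610 fragments. As for *Tek*, the order of the libraries was that of the number of tw18 chromosomes. Endomucin RNA had a log2 ratio of 2.26 in tw18/tw18 against wild type (1.94 to 2.59) and 1.25 against tw18/+ (1.04 to 1.47).

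*Cd34* spans positions 194938819 to 194961279 of Chr 1. Its FPKM values were 3.59, 3.70 and 11.6 in wild type, tw18/+ and tw18/tw18, and exons of the antisense gene *Gm16897* overlap it. *Esam*, which encodes an adhesion molecule of endothelial tight junctions and platelets, lies on Chr 9 from 37528078 to 37538319 and was at 2.70, 2.49 and 8.50 FPKM. For both genes wild type and tw18/+ lay together, with log2 ratios of 0.043 and -0.11 whose counting intervals spanned 0, and tw18/tw18 stood above them. The log2 ratio of tw18/tw18 against wild type was 1.69 for *Cd34* (1.42 to 1.98) and 1.66 for *Esam* (1.27 to 2.04).

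*Pecam1*, which encodes the adhesion molecule CD31, lies on Chr 11 from 106654217 to 106750628. Its FPKM was 8.39 in wild type, 3.23 in tw18/+ and 14.9 in tw18/tw18, from about 417, 224 and 1034 fragments. As for *Kdr*, tw18/+ was the lowest of the 3. In tw18/tw18 its log2 ratio was 0.83 against wild type (0.66 to 0.99) and 2.21 against tw18/+ (2.0 to 2.42), so *Pecam1* passed the threshold against 1 reference and not the other. It also passed against wild type after rescaling to equal FPKM sums (1.04).

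*Egfl7*, on Chr 2 from 26580014 to 26593120, was the most abundant of the 10 genes in wild type and the least changed in tw18/tw18. Its FPKM was 16.6 in wild type, 18.7 in tw18/+ and 23.2 in tw18/tw18, from about 311, 490 and 608 fragments. The log2 ratio of tw18/tw18 was 0.48 against wild type (0.28 to 0.68) and 0.31 against tw18/+ (0.14 to 0.49), the smallest of the 10 genes in both comparisons. Of the 50 bp words in its transcripts 4.94% also occur in the overlapping genes *Gm20532* and *Mir126a*, and exons of *Agpat2* overlap it on the other strand. For the other 9 genes the share found in any other gene was at most 0.998%, and for the 4 receptors at most 0.121%. *Egfl7* is the host gene of an endothelial microRNA, whose mature form is printed with its seed, bases 2 to 8, in capitals.
mmu-miR-126a-3p, chr2:26591402-26591423 (GRCm38.p6), plus strand: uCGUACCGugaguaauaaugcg
The microRNA gene, under its older symbol *Mir126*, was listed at 0 in all 3 libraries, while its host was at 16.6 or more. An exact 0 in this table can be a failed estimate, and such libraries are not made for RNAs this short, so its level is not known here.

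Between tw18/+ and wild type the 10 genes did not move as a group. Of the 9 that reached an FPKM of 1 in either library, 2 were higher in tw18/+, *Tek* and *Emcn*, and 2 were lower, *Kdr* and *Pecam1*. *Tie1* stayed under 1 in both. Over all 12426 genes tested, 4.7% were higher and 5.02% lower. *Tek* had a log2 ratio of 1.89 (1.16 to 2.67) and *Emcn* of 1.0 (0.66 to 1.37), while *Kdr* had -1.28 (-1.72 to -0.85) and *Pecam1* -1.38 (-1.62 to -1.14). The counting intervals of these 4 genes lay away from 0, as did that of *Flt1* at -0.41 (-0.65 to -0.16). Those of the other 5 spanned 0. The median difference of log2(FPKM + 1) was -0.024 over the 10 genes and 0.0026 over all genes tested.

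Against tw18/+, 9 of the 10 genes were higher in tw18/tw18 and 0 were lower, *Egfl7* being the exception. Of the 12846 genes tested, 14.9% were higher and 5.65% lower. *Kdr* had the largest log2 ratio in this comparison (2.74), followed by *Pecam1* (2.21) and *Tie1* (2.13), whereas against wild type the 3 largest were *Tek*, *Tie1* and *Emcn*. The comparisons share the tw18/tw18 library and are not independent. The lower of the 2 reference libraries was wild type for 5 genes and tw18/+ for the other 5.

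**Figure D3:**
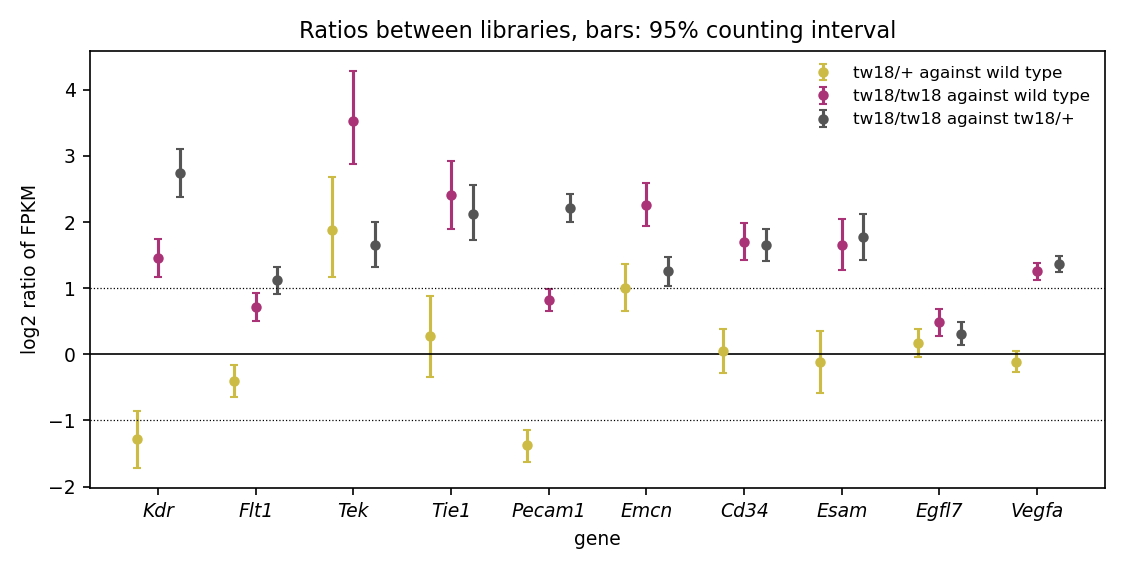
Log2 ratios of FPKM for the 10 genes in each pair of libraries, with 95% counting intervals from the estimated fragment numbers and dotted lines at a ratio of 1 in either direction. All 20 ratios of tw18/tw18 lie above 0, while those of tw18/+ to wild type run from -1.38 for *Pecam1* to 1.89 for *Tek*.

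The other genes of the pathway were read from lists of genes with known roles, chosen with earlier results of these data known, so their counts are descriptions and not independent evidence. Of 10 further ligands, co-receptors and related receptors of the VEGF and angiopoietin families, 3 were higher in tw18/tw18 than in wild type and 1 was lower. Over all genes tested, 15.1% were higher and 6.94% lower. The higher ones were *Pgf*, a ligand of *Flt1* (0.629 in wild type, 0.499 in tw18/+ and 2.43 in tw18/tw18), *Figf*, which encodes VEGF-D (0.0386, 1.22 and 1.25), and *Ptprb*, the phosphatase that acts on Tie2 (0.523, 0.231 and 1.40). *Vegfb*, a ligand of *Flt1* and the most abundant gene of the list, was the lower one, with 32.1, 23.9 and 15.3. *Vegfc* (2.08, 0.165 and 1.16) and the angiopoietin gene *Angpt2* (11.1, 4.85 and 10.7) also had their highest value in wild type, as did *Angpt1*, which stayed under 1 in each library (0.320, listed at 0 and 0.307).

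Relative to wild type, 1 gene of this list was higher in tw18/+, *Figf*, and 3 were lower, *Vegfc*, *Angpt2* and the VEGF co-receptor gene *Nrp1* (4.84, 2.35 and 8.97). The shares of all genes tested were 4.7% higher and 5.02% lower. Against tw18/+, 6 of the 10 were higher in tw18/tw18 and 0 lower, beside 14.9% and 5.65% of all genes tested. The tw18/+ library was the lowest for *Kdr*, *Flt1* and *Vegfa*, and in this list for *Vegfc*, *Pgf*, *Nrp1*, *Nrp2*, *Angpt1*, *Angpt2* and *Ptprb*. It was not the lowest for *Vegfb*, *Figf* and the receptor gene *Flt4*. Of 10 effectors that act inside the cell, such as *Plcg1* and *Akt1*, 1 was higher in tw18/tw18 than in wild type and 0 were lower. The higher one was the adaptor gene *Dok2* (2.07, 4.02 and 4.53). This share of 10% lay under the 15.1% of all genes tested that were higher, while 6.94% were lower.

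Of 14 transcription factor genes of endothelium and its precursors, 8 were higher in tw18/tw18 than in wild type and 1 was lower. Among all genes tested the shares were 15.1% and 6.94%. The ETS-family gene *Fli1* was at 0.469 FPKM in wild type, 1.02 in tw18/+ and 4.27 in tw18/tw18, and *Ets1*, of the same family, 1.80, 2.77 and 6.51. *Gata2* (8.44, 8.08 and 19.8) and *Hhex* (7.16, 7.79 and 19.1) were the most abundant of the 8, and both are also expressed outside endothelium, *Hhex* in anterior visceral endoderm. *Lmo2*, *Sox18*, *Klf2* and *Mef2c* completed the 8. In wild type *Sox18*, *Klf2* and *Mef2c* were low, at 0.447, 0.439 and 0.0113 FPKM. With a filter at 5 FPKM, 3 of the 8 remained. *Sox7*, the most abundant factor gene in wild type and tw18/+ (9.16, 8.78 and 10.2), and *Sox17* (4.74, 3.50 and 6.23) were not past the threshold, with log2 ratios of 0.15 and 0.39. The lower gene was *Etv2*, the ETS factor that starts the endothelial and blood programme in mesoderm, with 1.87 in wild type and 1.98 in tw18/+. It was listed at 0 in tw18/tw18, where a failed estimate cannot be told apart from absence. *Tal1*, another early factor, stayed under an FPKM of 1 in each library (0.104, 0.424 and 0.389).

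Of 22 other surface and junction genes of endothelium, 12 were higher in tw18/tw18 than in wild type and 0 were lower. Against tw18/+ 14 were higher and 0 lower. All genes tested had shares of 15.1% and 6.94% against wild type, and of 14.9% and 5.65% against tw18/+. In tw18/+ 2 were higher than in wild type, *Plvap* and *Nos3*, and 3 lower, *Cldn5*, *Ecscr* and *Stab1*, beside 4.7% and 5.02% of all genes tested. *Cdh5*, which encodes VE-cadherin, was the most abundant, at 23.2 FPKM in wild type, 12.9 in tw18/+ and 38.8 in tw18/tw18. Its log2 ratio was 0.74 against wild type and 1.59 against tw18/+, and its order was that of *Pecam1*. *Eng*, which encodes the TGF-beta co-receptor endoglin, was at 2.72, 2.51 and 15.6, with log2 ratios of 2.52 against wild type and 2.64 against tw18/+. *Ramp2*, which encodes a partner of the adrenomedullin receptor, had 7.22, 10.9 and 20.1. *Cd93*, a surface lectin of endothelium, had 1.12, 1.59 and 7.64, and *Plvap*, a component of endothelial fenestrae, was listed at 0 in wild type and had 1.36 in tw18/+ and 5.64 in tw18/tw18. The other genes higher than in wild type were *Robo4*, *Mmrn2*, *S1pr1*, *Gpr116*, *Eltd1*, *Acvrl1*, *Nos3* and *Lyve1*, with log2 ratios from 1.21 for *Gpr116* to 3.91 for *Acvrl1*. The ratio of *Acvrl1* rests on a wild-type value of 0.139 FPKM. *Robo4*, *Mmrn2*, *Eltd1*, *Nos3* and *Lyve1* were also under 1 FPKM in wild type. With a filter at 5 FPKM, 5 of the 12 higher genes remained. Across the 3 lists of ligands, factors and surface genes, 38 of 46 genes reached an FPKM of 1 in any library. Of the 38, 31 had their highest value in tw18/tw18, beside 41.0% of the 13118 genes that reached 1 FPKM. A gene that reached 1 FPKM only in tw18/tw18, such as *Klf2*, *Acvrl1* or *Lyve1*, is highest there by that rule. The same rule selected the genes behind the 41.0%.

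Markers of other tissues were read in the same way, beside 15.1% of all genes tested higher and 6.94% lower in tw18/tw18 than in wild type. List counts are out of every gene found, including genes too low to be tested. Of 10 decidual stroma genes, 7 were higher in tw18/tw18 than in wild type and 2 were lower. The 2 were the prolactin-family genes *Prl8a2* (1504 in wild type, 155 in tw18/+ and 377 in tw18/tw18) and *Prl3c1* (121, 13.2 and 25.2), so the summed FPKM of the list was 1771, 265 and 745. None of the 10 was at 0 in any library. Of 8 pericyte and smooth muscle genes 4 were higher and 0 lower, with a summed FPKM of 62.9 in wild type, 84.7 in tw18/+ and 247 in tw18/tw18, of which *Des* made up 45.5, 65.9 and 201. *Des* is also a gene of decidual cells. Of 10 leukocyte genes 7 reached an FPKM of 1 in wild type or tw18/tw18, and of these 2 were higher and 1 lower. Against tw18/+, 5 leukocyte genes were higher in tw18/tw18 and 1 lower, beside 14.9% and 5.65% of all genes tested. The list had sums of 27.9, 18.9 and 44.1, and *Ptprc*, its defining gene, stayed under 1 (0.248, 0.280 and 0.695).

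Blood markers split by age. The embryonic globin genes *Hbb-bh1*, *Hbb-y* and *Hba-x* were listed at 0 in all 3 libraries, and *Klf1*, an erythroid transcription factor gene, was listed at 0 in wild type and had 0.135 in tw18/+ and 0.306 in tw18/tw18. The 5 adult erythroid genes in the table had sums of 133, 152 and 362, with 3 higher and 1 lower in tw18/tw18 than in wild type, though fragments can be shared between these near-identical copies. Of 5 platelet genes *Pf4*, *Gp9* and *Ppbp* were listed at 0 in all 3 libraries and none reached an FPKM of 1, with sums of 0.643, 0.727 and 1.14.

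Of 7 extra-embryonic mesoderm genes 4 were higher in tw18/tw18 than in wild type and 0 lower, with sums of 17.5 in wild type, 19.6 in tw18/+ and 55.2 in tw18/tw18. Of 7 extra-embryonic ectoderm genes 6 were higher and 0 lower (26.0, 26.4 and 58.2). Of 6 trophoblast giant cell genes 2 were higher and 1 lower (186, 98.5 and 359), with *Ctsq* and *Prl3b1* at 0 in all libraries. Of 6 parietal endoderm genes 5 were higher and 0 lower (256, 306 and 655), and of 10 visceral endoderm genes 0 were higher and 0 lower (880, 853 and 1122). Of the 10 epiblast genes 0 were higher and 4 lower (1953, 2095 and 1051). The endothelial genes were therefore highest in the library in which the epiblast sum was lowest and *Ppp2r1a* was still found at 12.8. In that library the sums of the adult erythroid, pericyte, leukocyte, trophoblast giant cell, visceral endoderm, parietal endoderm and both extra-embryonic lists were highest too, as were 8 of the 10 decidual genes. The part of these tissues in the values of the 10 genes was not tested, and genotype and the makeup of the single libraries cannot be told apart.

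**Figure D4:**
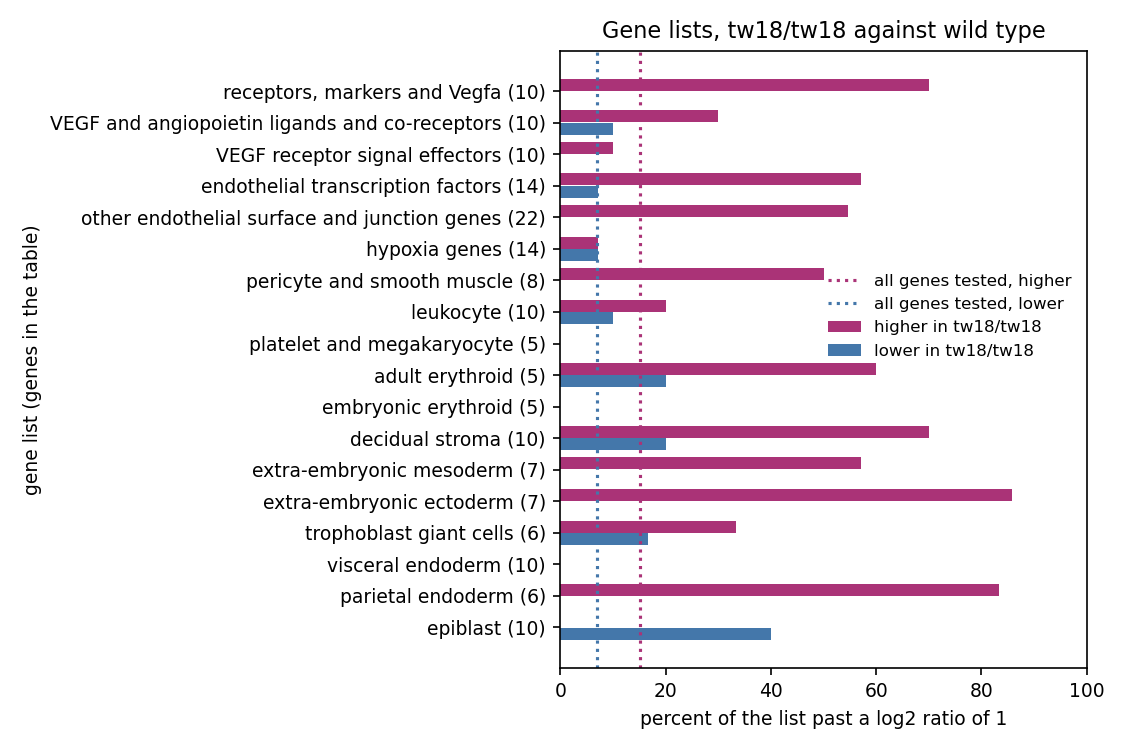
Share of each gene list, in percent of its genes in the table (number in brackets), that was higher or lower in tw18/tw18 than in wild type by a log2 ratio of at least 1, with dotted lines for all genes tested. The lines count only genes of at least 1 FPKM in the higher library, so bars of lists with lower genes are understated beside them. No gene of the platelet and embryonic erythroid lists was tested. The top bar is the 10 genes followed here, at 70.0% higher and 0% lower, beside 15.1% and 6.94% of all genes.

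The genes with the most similar pattern, by the distance of their 2 log2 ratios to wild type from the median of the 10 genes, were *Hspb1*, *Gpx3* and *Tfap2c*, at distances of 0.048, 0.055 and 0.056, out of 7635 genes that reached 5 FPKM in each of the 3 libraries. *Gpx3*, which encodes a secreted glutathione peroxidase, had 935 in wild type, 884 in tw18/+ and 2700 in tw18/tw18. In all 29 genes lay within a distance of 0.25, and with 3 libraries the order among them carries little.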

How the data were processed

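RNA was measured in 3 libraries, 1 per genotype, grouped by the genotype in their labels. Strand-specific libraries were made from total RNA and read as 50 bp pairs. The deposited FPKM values, 1 per gene symbol, are the authors' Cuffdiff output after alignment to mm10 (GRCm38) by TopHat. The submitters' processing notes also name Bowtie 1.0.0 and Cufflinks 2.2.1. The gene annotation and the strand setting are not given in the sources used here.

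The deposited FPKM values were used without change in Python 3.11.15 with numpy 2.4.6, pandas 2.3.3 and scipy 1.17.1. Plots were drawn with matplotlib 3.10.9. The FPKM worth of 1 fragment was read from low values of genes with a single transcript in GENCODE M21 and RefSeq, taking 150 bp off each length. For the 10 genes the longest coding transcript matched to RefSeq gave the length. The resulting fragment numbers are approximate, and PCR copies are not independent molecules. Ratios carry no pseudocount, medians a pseudocount of 1. The call rule was tested on simulated data with set changes and counting noise only. That test does not cover genes near the filter of 1 FPKM or changes near the threshold. Nor does it cover variation between embryos or in the makeup of a library. The 10 genes and the 17 further lists were chosen with earlier results of these data known. By rule, all 10 genes are named, and up to 4 of the most abundant genes of each list and any gene past the threshold in the 3 endothelial and VEGF lists may be named. Other genes, such as those at 0 and single exceptions, were named after their values were seen. The alternatives were pseudocounts of 0.1 and 1, a filter at 5 FPKM or none, a log2 threshold of 2, centring on the median log2 ratio, equal FPKM sums, and tw18/+ as the reference. *Hbb-bt* of the adult erythroid list had no row in the table used here. Some items of the lists are not reported here.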

Additional observations from a re-analysis of the deposited data

How the results depend on the processing

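Under each scaling, and with tw18/+ as the reference for tw18/tw18, the log2 ratios of the 10 genes kept their sign. A pseudocount added to both values cannot change a sign. Both scalings raised the ratios of tw18/tw18 to wild type, which were already positive, so there too the sign could not change. For tw18/tw18 against wild type, 7 higher genes became 4 with a filter at 5 FPKM and 3 at a log2 threshold of 2. Of all genes tested, 15.1% higher became 8.96% and 5.76% under these settings, and 6.94% lower became 4.11% and 2.28%. For tw18/+ against wild type, 2 higher genes became 1 with a pseudocount of 0.1 and after rescaling to equal FPKM sums, and 0 with a pseudocount of 1, with the filter at 5 FPKM and at a threshold of 2. The 2 lower genes became 1 with a pseudocount of 1 and with the filter at 5 FPKM, and 0 at a threshold of 2. Of all genes tested, 4.7% higher and 5.02% lower became 2.12% and 2.31% with a pseudocount of 1. These shares were 1.12% and 1.63% with the filter at 5 FPKM, and 1.71% and 1.69% at a threshold of 2. For tw18/tw18 against tw18/+, 9 higher genes became 5 with the filter at 5 FPKM and 3 at a threshold of 2. Here 14.9% higher of all genes tested became 9.24% and 4.75%, and 5.65% lower became 3.21% and 1.52%. Over the 46 genes of the 3 endothelial and VEGF lists, 23 higher and 2 lower genes in tw18/tw18 against wild type became 8 and 1 with the filter at 5 FPKM, 11 and 1 at a threshold of 2, and after rescaling 25 and 1. The higher filter and threshold admit fewer genes by construction. Over all genes, 1946 were higher and 896 lower in tw18/tw18 than in wild type, and these counts ran from 744 and 295 at a threshold of 2 to 4072 and 1825 with no filter. Rescaling moved the split of all called genes from 72.5% to 84.3% higher for tw18/tw18 against tw18/+. No paired analysis was possible because each genotype had 1 library, and for the same reason no library could be left out. Depth limits *Tek* and *Tie1* in wild type most, at about 19 and 37 fragments.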
